A study of Mus musculus with 16 samples.

Results

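The transcription factor p53, encoded by Trp53, and 33 genes named as its targets or direct regulators were followed through mouse induced pluripotent stem (iPS) cells made with a human artificial chromosome (HAC). The 34 genes were chosen by name, as every probe whose gene name in the array files equalled a member of the list. They accounted for 34 of 28095 gene names and 61 of 41174 probes on the array. All 61 probes entered the test, since each was read well above background by 1 array or more, and the probe chosen for each gene was well above background on all 16 arrays.

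RNA from 16 cultures was hybridised to 1-colour Agilent whole mouse genome arrays, 1 array per line. The cells that were reprogrammed were embryonic fibroblasts (MEFs) of C57BL/6 mice, represented by 1 array. The embryonic stem (ES) group held 2 lines, B6ES from C57BL/6 and TT2 from a C57BL/6 x CBA cross, and 20D17 was a single line of retrovirally made iPS cells from a C57BL/6 x DBA background. Clones 1-A3, 1-B, 1-C3 and 1-D6 carried iHAC1, a HAC with Klf4, c-Myc, Sox2 and Oct4 under the CAG promoter. Clones 2-B1, 2-C6, 2-E and 2-N carried iHAC2, which holds the same factors with additional copies of Oct4 and a short hairpin RNA (shRNA) against p53 driven by the H1 promoter. Line F-B1 descended from 2-B1, F-C5 from 2-C6, F-E4 from 2-E and F-N7 from 2-N, after spontaneous loss of the vector and sorting of cells that had lost its green fluorescence. Each iPS line was 1 clone, HACs were moved into the fibroblasts by fusion with microcells of hamster donor cells, and iPS cells were grown with LIF on mitomycin-treated ICR fibroblast feeders. Each array of an iPS group was a different line, so p-values measure the spread between lines.

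p53 is kept scarce in unstressed cells by Mdm2, an E3 ligase that marks it for degradation and is itself a p53 target, which closes a feedback loop. When DNA is damaged or an oncogene is active, p53 accumulates and switches on genes for cell death, cell cycle arrest, DNA repair and metabolism. Reprogramming factors, c-Myc among them, raise p53 activity in fibroblasts, and lowering p53 is known to let more of them become iPS cells, which is the purpose of the hairpin in iHAC2. An shRNA lowers its target through cleavage and decay of the messenger RNA or block of its translation. Most of p53 control acts on the protein, which the arrays did not measure.

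Levels are given as log2 of the array signal minus the 75th percentile of that array, so 0 is the 75th percentile and 1 unit is a 2-fold change. A gene was called when the Benjamini-Hochberg adjusted p of 1 limma model over 31415 probes was below 0.05 and the difference was at least 2-fold. Between 54.2% and 65.8% of 43379 gene spots were well above background per array, and no spot was saturated. The arrays lay on 4 slides in 2 scan sessions: the first held the MEF, ES, 20D17 and iHAC1-iPS arrays and the second held the iHAC2-iPS and iHAC-free arrays. Scan session and group therefore cannot be told apart in any comparison of the iHAC2-iPS or iHAC-free arrays with the others. The labels of the lines were checked on cell type markers. Marker levels were summed on the linear scale and are given as log2 of the sum, so the brightest markers weigh most. The summed level of 8 measured pluripotency markers was 6.71 to 6.79 in iHAC1-iPS clones, 8.31 to 9.60 in iHAC2-iPS clones and 8.96 to 9.25 in iHAC-free lines. It was 8.79 to 9.16 in ES lines and 0.21 in MEFs, where 4 of them (Pou5f1, Esrrb, Zfp42 and Tdgf1) were not well above background. Pou5f1 (Oct4) and Sox2, counted in this sum, are also carried by iHAC1 and iHAC2. The share of vector transcript in their signal was not examined. The summed level of 8 fibroblast markers was 7.66 to 8.97 in iHAC1-iPS clones, 6.64 to 8.28 in iHAC2-iPS clones, 7.39 to 8.32 in iHAC-free lines, 5.77 to 7.28 in ES lines and 8.39 in MEFs. Single lines stood apart in the summed level of 4 endoderm markers: 1-C3 read 3.06 and the other iHAC1-iPS clones -2.83 to -0.78, F-B1 read 2.52 and the other iHAC-free lines -1.40 to -0.43, and TT2 read 2.80 and B6ES -0.88. iHAC2-iPS clones read -2.59 to -0.11. The summed level of 3 trophectoderm markers ran from -4.62 to 0.23 in iHAC1-iPS clones, from -1.80 to 0.12 in iHAC2-iPS clones, from -2.10 to 0.35 in iHAC-free lines and from -0.55 to 0.41 in ES lines. The difference in pluripotency markers runs beside each comparison with iHAC1-iPS clones below. For fibroblast markers the iHAC1-iPS range overlapped those of iHAC2-iPS clones and iHAC-free lines and lay above that of ES lines. The part of any of these markers in the members' values was not tested.

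**Figure D1:**
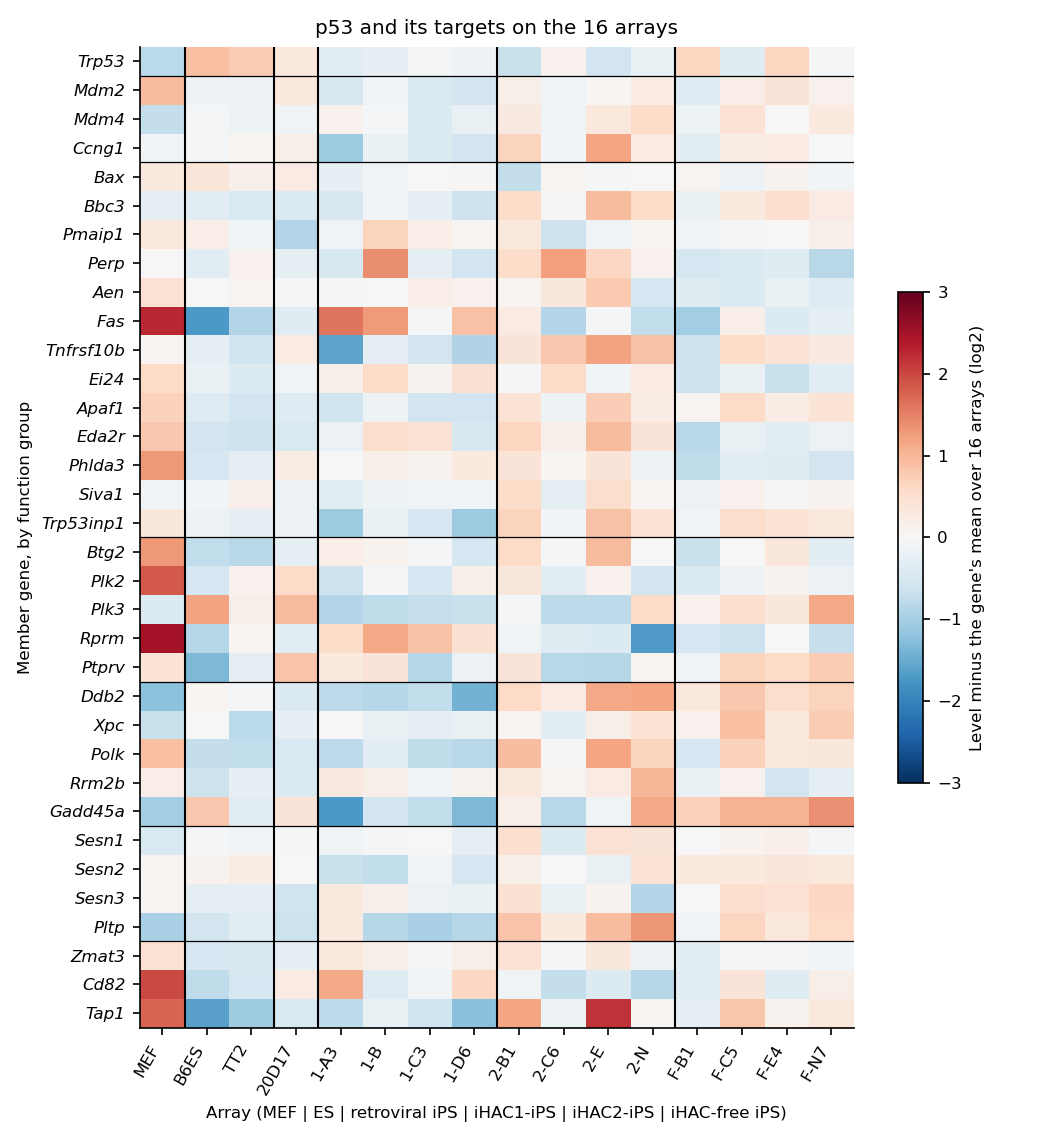
Each row is 1 of the 34 genes, ordered by function, and each column 1 of the 16 arrays; colour gives the log2 level minus the gene's mean over the 16 arrays. Ddb2 and Trp53inp1 are lower in the iHAC1-iPS columns than in those of the other pluripotent groups on average, Polk is about as low in the ES columns (-1.0 and -1.03), and 9 genes have their highest level in the MEF column.

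Trp53 itself was read by a pair of probes on chromosome 11, shown here because they gave different answers. The probe with the higher mean level, chosen for the gene by a common rule, lay at chr11:69403134-69403193 of the mm9 build on the forward strand and started 989 bases into the transcript. It was printed in 10 spots per array. The other probe, at chr11:69393959-69394017, started 98 bases into the transcript and contained the forward primer with which the study amplified Trp53. The sequence of the chosen probe and that primer are given in lower case.
Trp53 probe: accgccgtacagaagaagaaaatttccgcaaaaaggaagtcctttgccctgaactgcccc
Trp53 forward primer: acgcttctccgaagactgg

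The transcript at the chosen probe was higher in ES lines than in HAC-carrying iPS clones. It read 2.19 in B6ES, 2.04 in TT2, 1.60 in 20D17 and 0.46 in MEFs, the lowest of all 16 arrays. Among iHAC1-iPS clones it read 0.96 in 1-A3, 1.03 in 1-B, 1.25 in 1-C3 and 1.12 in 1-D6. Among the clones that carried the p53 shRNA it read 0.61 in 2-B1, 1.41 in 2-C6, 0.70 in 2-E and 1.06 in 2-N. After loss of the vector it read 1.92 in F-B1, 0.92 in F-C5, 1.92 in F-E4 and 1.20 in F-N7. The iHAC2-iPS values fell on both sides of the iHAC1-iPS values, and 2-C6 was higher than every iHAC1-iPS clone. In bulk RNA, fewer expressing cells and less transcript per cell cannot be told apart.

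The hairpin clones did not have a detectably lower Trp53 signal at this probe than the clones without it. The difference of iHAC2-iPS minus iHAC1-iPS was -0.15 (95% interval -0.67 to 0.38, limma adjusted p = 0.659), and the exact two-sided permutation test over 4 against 4 arrays gave p = 0.486, where the smallest possible is 0.0286. As a group, iHAC2-iPS clones differed from their iHAC-free derivatives by -0.55 (95% interval -1.07 to -0.02). This failed the correction over all probes (limma adjusted p = 0.26) and the exact permutation test (p = 0.143), neither of which used the pairing. With clone of origin in the limma model the limma adjusted p was 0.543. Pair by pair the clone stood at -1.32 for 2-B1, 0.49 for 2-C6, -1.21 for 2-E and -0.14 for 2-N relative to its derivative. Clones 2-B1 and 2-E thus carried most of the group difference, and 2-C6 went the other way. Within slides the mean difference was -0.36 on the slide with 2-C6 and 2-E and -0.73 on the slide with 2-B1 and 2-N. The iHAC-free lines stood 0.40 above iHAC1-iPS clones (limma adjusted p = 0.218, exact permutation p = 0.286).

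The probe near the start of the transcript ordered the groups differently. It read 0.94, 0.95, 0.88 and 1.35 in 1-A3, 1-B, 1-C3 and 1-D6, and 0.71, 0.18, 0.55 and 0.57 in 2-B1, 2-C6, 2-E and 2-N. In the lines that no longer had the hairpin it read 0.21 in F-B1, 0.39 in F-C5, 0.25 in F-E4 and 0.36 in F-N7. Every array of the second scan session was below every iHAC1-iPS array. The iHAC2-iPS clones were lower than iHAC1-iPS clones by -0.52 (limma adjusted p = 0.0172) and the iHAC-free lines by -0.72 (limma adjusted p = 0.00284), each with an exact permutation p of 0.0286, the smallest possible; both were under 2-fold. Between iHAC2-iPS clones and iHAC-free lines the same probe differed by 0.20 in the direction opposite to the chosen probe (exact permutation p = 0.171).

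**Figure D2:**
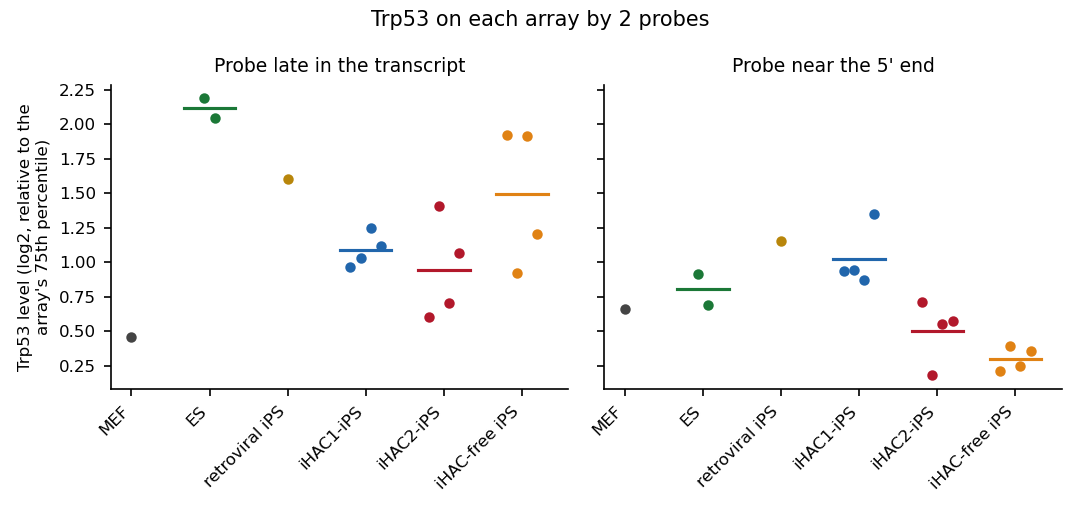
Points are the log2 level of Trp53 on each array relative to the array's 75th percentile, by group, in 1 panel per probe; bars are group means. At the chosen probe the 4 iHAC2-iPS clones range from 0.61 to 1.41 and overlap both the iHAC1-iPS clones and the iHAC-free lines, while at the probe near the transcript start the iHAC1-iPS clones lie above both.

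Compared with ES lines, Trp53 at the chosen probe was -1.02 in iHAC1-iPS clones (limma adjusted p = 0.0294), -1.17 in iHAC2-iPS clones (limma adjusted p = 0.0295) and -0.62 in iHAC-free lines (limma adjusted p = 0.26). The first 2 were called and no iPS array of the 3 groups reached either ES line. The exact two-sided permutation test gave p = 0.133 for each, the smallest it can give with 4 against 2 arrays. The other probe differed from ES lines by 0.22, -0.30 and -0.50 in the same order of groups. The comparisons share the 2 ES arrays, and the calls on Trp53 were lost without either ES line (limma adjusted p 0.185 and 0.0991 for iHAC1-iPS, 0.171 and 0.129 for iHAC2-iPS). They were also lost without 1-A3, 1-B or 1-D6 (limma adjusted p 0.0644, 0.0511 and 0.0537) and without 2-B1 or 2-E (limma adjusted p 0.0579 and 0.0627).

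The question of whether p53 target transcripts differed between clones with and without the hairpin is met by the comparison of iHAC2-iPS with iHAC1-iPS clones. These also differ in Oct4 copies, in transfer experiment and in clone. Of the 34 genes, 8 were higher and 2 were lower in iHAC2-iPS clones, where 11.0% of all probes tested were called higher and 8.98% lower. The members called were thus 29.4% against 20.0% of all probes in either direction, and the median difference over the members was 0.39, with 24 of 34 above 0. The groups did not overlap in 8 of 34 members (23.5%), beside 32.6% of all probes. By function, 3 of 5 repair genes, 3 of 13 apoptosis genes, 1 of 3 feedback genes, 1 of 5 growth arrest genes, 1 of 4 metabolism genes and 1 of 3 genes of RNA binding and membrane proteins were called. With the deposited value table, quantile normalization or the slide as a block, the same 10 genes were called, and so they were without 1-C3, the iHAC1-iPS clone that stood apart in endoderm markers.

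Of the repair genes 3 of 5 were called, all 3 higher. Ddb2, which recognises ultraviolet damage for nucleotide excision repair, read -1.10, -1.45, -0.55 and -0.52 in 2-B1, 2-C6, 2-E and 2-N against -2.48, -2.54, -2.44 and -3.12 in 1-A3, 1-B, 1-C3 and 1-D6. All hairpin clones were above all iHAC1-iPS clones. The difference was 1.74 ± 0.23 (SE; limma adjusted p = 0.00028), the smallest adjusted p of the 34 genes. The iHAC-free lines, at -1.38, -0.89, -1.16 and -1.03, were as far from iHAC1-iPS clones (1.53 ± 0.23, limma adjusted p = 0.000418), and ES lines lay between at -1.64 and -1.72.

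Polk, a DNA polymerase that copies past bulky lesions, read 0.63, -0.25, 0.90 and 0.38 in 2-B1, 2-C6, 2-E and 2-N and -1.06, -0.61, -1.05 and -1.11 in 1-A3, 1-B, 1-C3 and 1-D6. The groups did not overlap, and 2-C6 was the hairpin clone nearest to the iHAC1-iPS range. The difference was 1.38 ± 0.28 (limma adjusted p = 0.00292), and Polk was also above ES lines (-1.0 and -1.03) by 1.43 (limma adjusted p = 0.0242). A further Polk probe was not well above background in iHAC1-iPS clones and was brighter by at least 1.77-fold in the hairpin clones.

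Gadd45a, a stress-induced gene of repair and cell cycle checks, read 2.64, 1.63, 2.33 and 3.61 in 2-B1, 2-C6, 2-E and 2-N and 0.74, 1.89, 1.72 and 1.12 in 1-A3, 1-B, 1-C3 and 1-D6, so 2-C6 lay within the iHAC1-iPS range. In the iHAC-free lines it was higher again, at 3.16 in F-B1, 3.50 in F-C5, 3.51 in F-E4 and 3.82 in F-N7, and in B6ES and TT2 it read 3.27 and 2.13. The iHAC-free lines differed from iHAC1-iPS clones by 2.13 ± 0.40 (limma adjusted p = 0.00176), the largest difference of any member in that comparison, and the hairpin clones by 1.18 ± 0.40 (limma adjusted p = 0.0364). The latter call was lost when 1-A3, 1-D6, 2-B1, 2-E or 2-N was left out (limma adjusted p from 0.0523 to 0.0986). The other repair genes, Xpc, the damage sensor that works beside Ddb2, and Rrm2b, a subunit of ribonucleotide reductase, stood at 0.27 and 0.32 and were not called.

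Tnfrsf10b and Fas, which start cell death from the cell surface, moved in opposite directions. Tnfrsf10b, the mouse TRAIL receptor, read -1.05, -0.62, -0.22 and -0.55 in 2-B1, 2-C6, 2-E and 2-N and -3.01, -1.70, -2.0 and -2.34 in 1-A3, 1-B, 1-C3 and 1-D6, without overlap. In the ES lines it read -1.69 and -2.04, within the iHAC1-iPS range or next to it. It was higher in hairpin than in iHAC1-iPS clones by 1.65 ± 0.32 (limma adjusted p = 0.00224), and its other probes rose too, by 1.39 and 1.1. Fas, the receptor of Fas ligand, read -1.27, -2.40, -1.57 and -2.25 against 0.11, -0.24, -1.54 and -0.63 in the same order of clones, with 1-C3 in the hairpin range. It fell by 1.30 ± 0.39 (limma adjusted p = 0.0219), and a further probe, not well above background in hairpin clones, was at least 2.22-fold lower there. The call on Fas at the chosen probe was lost without 1-A3, 1-B or 2-N (limma adjusted p from 0.0522 to 0.0636).

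Trp53inp1, a nuclear stress protein that binds p53 and promotes cell death, read 4.48, 3.74, 4.71 and 4.23 in 2-B1, 2-C6, 2-E and 2-N and 2.76, 3.63, 3.31 and 2.74 in 1-A3, 1-B, 1-C3 and 1-D6. It was higher by 1.18 ± 0.25 (limma adjusted p = 0.00392) without overlap, and by 1.36 at its other probe. Among the genes of the mitochondrial route, Bbc3 (Puma), a BH3-only killer of the Bcl-2 family, was higher by 0.90 (limma adjusted p = 0.00646) and Apaf1, the scaffold of the apoptosome, by 0.78 (limma adjusted p = 0.0091), both below 2-fold. A second Apaf1 probe was called at 2.28. Bax, which opens the mitochondrial outer membrane, stood at -0.10 and Pmaip1 (Noxa), another BH3-only gene, at -0.30. The remaining apoptosis genes, Perp, Aen, Ei24, Eda2r, Phlda3 and Siva1, lay between -0.15 and 0.62 and did not pass.

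In the feedback loop, Ccng1, cyclin G1, which brings a phosphatase to Mdm2, read 4.04, 3.27, 4.55 and 3.61 in 2-B1, 2-C6, 2-E and 2-N and 2.26, 3.16, 2.95 and 2.77 in 1-A3, 1-B, 1-C3 and 1-D6. The groups did not overlap, but 2-C6 was only just above 1-B. The difference of 1.08 ± 0.27 (limma adjusted p = 0.00896) was not borne out by the gene's other probe, at -0.39, and fell below 2-fold without 1-A3 (0.91) or 2-E (0.86). Mdm2 was 2.89, 2.59, 2.76 and 2.95 against 2.22, 2.63, 2.25 and 2.16, higher by 0.48 (limma adjusted p = 0.0465) and below 2-fold. Mdm4, the relative of Mdm2 that masks the activation domain of p53, stood at 0.38, and 1 of its other 3 probes was called at 1.02 while another stood at -0.16.

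The growth arrest gene Rprm (Reprimo), which holds cells in G2, was lower in the hairpin clones. It read -0.23, -0.48, -0.52 and -1.81 in 2-B1, 2-C6, 2-E and 2-N against 0.44, 1.03, 0.75 and 0.34 in 1-A3, 1-B, 1-C3 and 1-D6, without overlap. The fall of 1.40 ± 0.34 (limma adjusted p = 0.00724) was seen at its other probe as well (-1.1, called). The other growth arrest genes, the antiproliferative factor Btg2, the polo-like kinases Plk2 and Plk3 and the phosphatase Ptprv, lay between -0.22 and 0.48 and were not called.

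Pltp, a phospholipid transfer protein, read 0.30, -0.27, 0.37 and 0.77 in 2-B1, 2-C6, 2-E and 2-N against -0.27, -1.41, -1.53 and -1.41, and was higher by 1.45 ± 0.30 (limma adjusted p = 0.00349). Clone 1-A3 alone among iHAC1-iPS clones came up to the lowest hairpin clone. Tap1, a subunit of the peptide transporter for antigen presentation, read -0.55, -1.89, 0.44 and -1.68 against -2.52, -1.96, -2.34 and -2.98. It was higher by 1.53 ± 0.45 (limma adjusted p = 0.0203), with 2-C6 only just above 1-B, and its call was lost without 1-D6 (limma adjusted p = 0.061). Of the sestrins, which restrain mTOR signalling under stress, Sesn2 was higher by 0.59 (limma adjusted p = 0.0173), and Sesn1 and Sesn3 stood at 0.33 and -0.16. Zmat3, an RNA-binding zinc finger protein, differed by -0.03, and the tetraspanin Cd82 was lower by -0.85 (limma adjusted p = 0.0472).

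**Figure D3:**
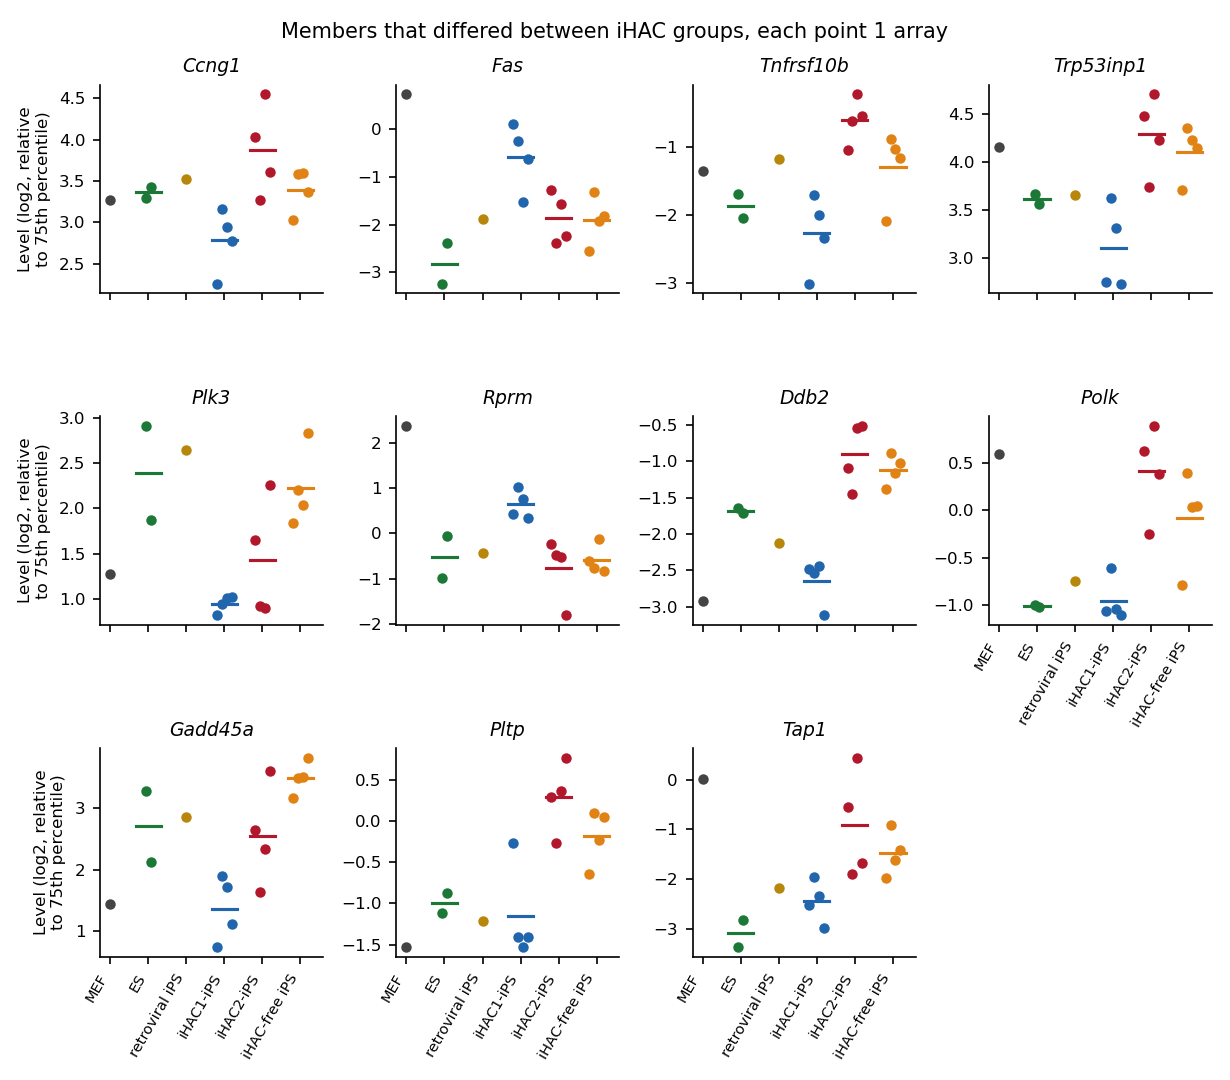
Each panel is 1 of the 11 genes called in a comparison of iHAC2-iPS clones or iHAC-free lines with iHAC1-iPS clones; points are the log2 levels of the single arrays by group and bars are group means. In each panel the mean of the iHAC-free lines lies nearer to that of the iHAC2-iPS clones, from which they descended, than to that of the iHAC1-iPS clones, as with Ddb2 at -1.12 on average against -0.90 and -2.64.

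The hairpin was gone from the iHAC-free lines, and their comparison with iHAC1-iPS clones shows members that differed from iHAC1-iPS clones in cells without it. Of the 34 genes 6 were called (17.6%, beside 20.1% of all probes), 4 higher and 2 lower, and the median difference was 0.32. Ddb2 and Gadd45a have been given. Trp53inp1 was higher by 1.00 (limma adjusted p = 0.00838), at 3.71, 4.35, 4.23 and 4.14, just past the 2-fold limit. Plk3, a stress-responsive polo-like kinase, read 1.84 in F-B1, 2.20 in F-C5, 2.04 in F-E4 and 2.84 in F-N7 against 0.82, 0.95, 1.01 and 1.02 in iHAC1-iPS clones, without overlap, and was higher by 1.28 ± 0.33 (limma adjusted p = 0.00947). Fas fell by 1.33 (limma adjusted p = 0.0189) to -2.56, -1.32, -1.92 and -1.81, and Rprm fell by 1.22 (limma adjusted p = 0.0134) to -0.61, -0.77, -0.13 and -0.82. A further 10 members had an adjusted p below 0.05 with less than a 2-fold difference, among them Ei24 (-0.76), Phlda3 (-0.65), Sesn2 (0.81) and Xpc (0.70). The calls on Fas and on Trp53inp1 were each lost when single lines were left out: Fas without 1-A3 or F-B1 (limma adjusted p 0.0576 and 0.0561), and Trp53inp1 without 1-A3, 1-D6, F-C5, F-E4 or F-N7, where it dropped to between 0.88 and 0.99. In all, 8 members were called without F-B1 and 7 without 1-C3, the lines that stood apart in endoderm markers. This comparison and the previous one share the iHAC1-iPS arrays.

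**Figure D4:**
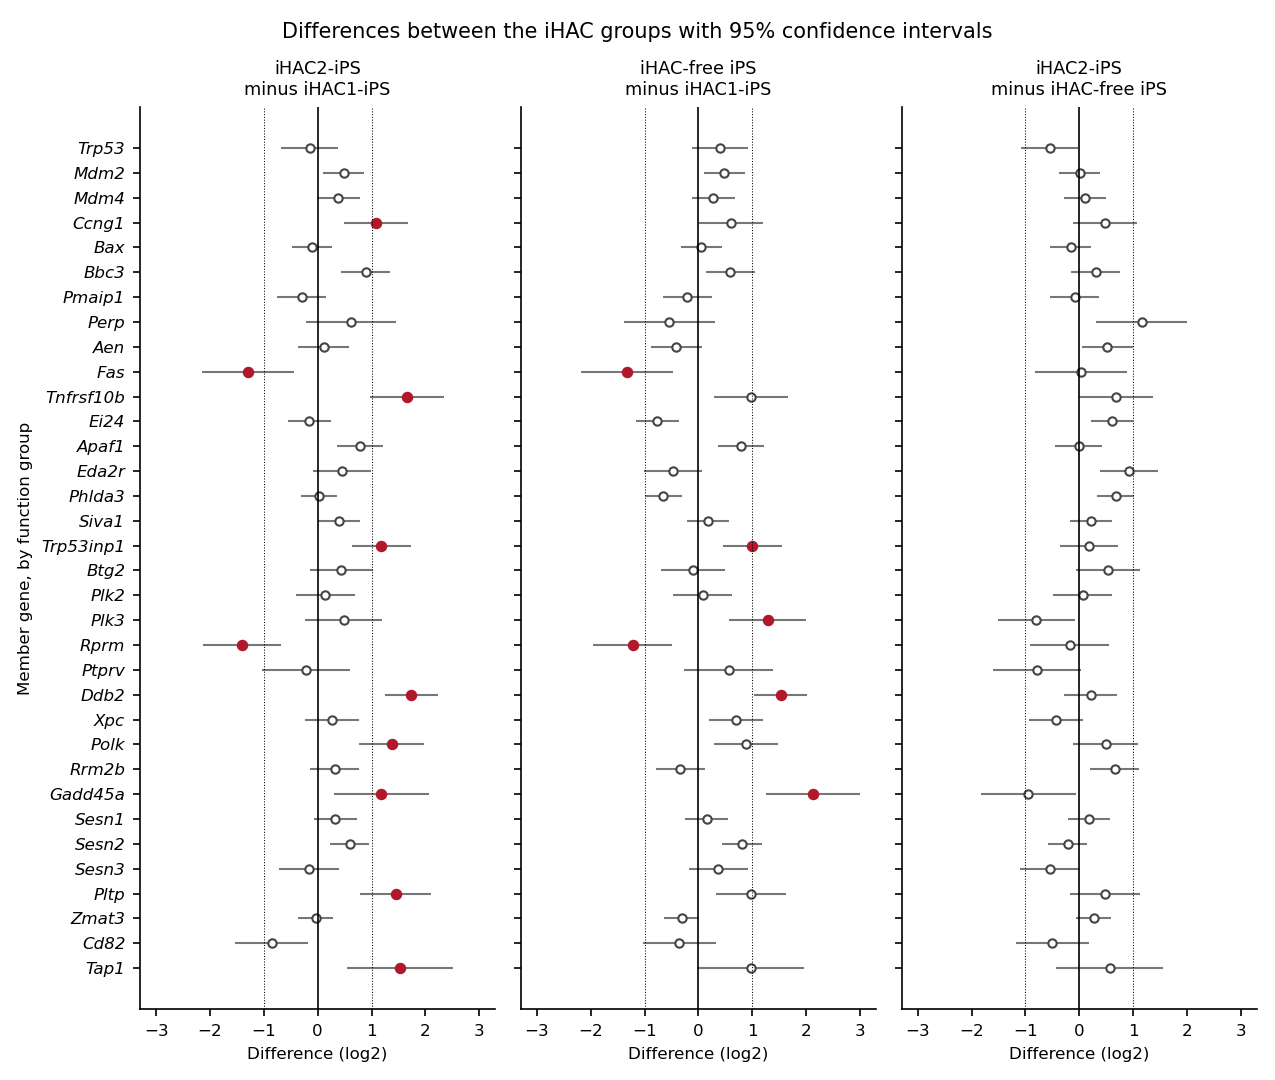
For each of the 34 genes, points give the log2 difference (filled where called) and bars its 95% interval for iHAC2-iPS minus iHAC1-iPS, iHAC-free minus iHAC1-iPS and iHAC2-iPS minus iHAC-free iPS. Ddb2 is at 1.74, 1.53 and 0.21 in that order, Gadd45a at 1.18, 2.13 and -0.94, and Perp at 0.62, -0.54 and 1.16.

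The iHAC-free lines descended from the iHAC2-iPS clones, and both groups lay on the same slides of the same session. The hairpin and the reprogramming factors were lost together with the vector and cannot be told apart in this comparison. No member was called between iHAC2-iPS clones and iHAC-free lines by limma (0 of 34, beside 0.818% of all probes), while 9 of 34 had an unadjusted p under 0.05 (26.5%, beside 18.3% of all probes), and the median difference was 0.18. The groups did not overlap in 4 of 34 members (11.8%), the same share as over all probes (11.3%), and these are described here as values only. Perp, a membrane protein of desmosomes and an apoptosis effector, read 3.81, 4.49, 3.88 and 3.39 in 2-B1, 2-C6, 2-E and 2-N against 2.74, 2.85, 2.90 and 2.43 in their derivatives in the same order. That was a difference of 1.16 (limma adjusted p = 0.163). Phlda3, which competes with Akt for membrane lipids, was at 6.34, 6.02, 6.34 and 5.79 against 5.18, 5.60, 5.60 and 5.40, a difference of 0.68 (limma adjusted p = 0.0626). Eda2r, a tumour necrosis factor receptor for ectodysplasin, differed by 0.92 (limma adjusted p = 0.0999), and Ei24, an endoplasmic reticulum protein of autophagy, by 0.61 (limma adjusted p = 0.128).

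Pair by pair, 5 members were higher in every clone than in its own derivative (14.7%, beside 16.4% of all probes): Perp, Tnfrsf10b, Ei24, Eda2r and Phlda3. Perp was above its derivative by 1.07 in 2-B1, 1.64 in 2-C6, 0.98 in 2-E and 0.96 in 2-N, and Ei24 by 0.56, 0.75, 0.57 and 0.55. The even size of the Ei24 difference contrasts with Eda2r, at 1.46, 0.37, 1.29 and 0.57. Plk3, Xpc and Gadd45a were lower in every clone than in its derivative (8.82% of members, beside 9.56% of all probes), Gadd45a by -0.52, -1.87, -1.17 and -0.21. The other 26 members went both ways. The pairs were not alike: 28 of 34 members were higher in 2-B1 than in F-B1 and 22 higher in 2-E than in F-E4, but 10 in 2-C6 over F-C5 and 18 in 2-N over F-N7. Of all probes 56.8% were higher in 2-B1, 53.1% in 2-E, 53.3% in 2-C6 and 54.0% in 2-N, against 82.4%, 64.7%, 29.4% and 52.9% of members. The median over the members was 0.56, 0.41, -0.35 and 0.07 in that order of clones, and over all probes it was 0.11, 0.05, 0.06 and 0.05. Clones 2-B1 and 2-E were those with the lowest Trp53 at the chosen probe (0.61 and 0.70) and 2-C6 had the highest (1.41); at the other Trp53 probe 2-B1 was the highest of the 4 (0.71) and 2-C6 the lowest (0.18). Array 2-B1 had the smallest share of gene spots well above background (54.2%, beside 61.9% in F-B1). The shares were 57.4% in 2-C6 and 59.4% in F-C5, 59.9% in 2-E and 63.0% in F-E4, and 56.7% in 2-N and 60.1% in F-N7. The part of these shares in the counts was not tested. The account of the pairs is a description of 4 clones with no test.

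**Figure D5:**
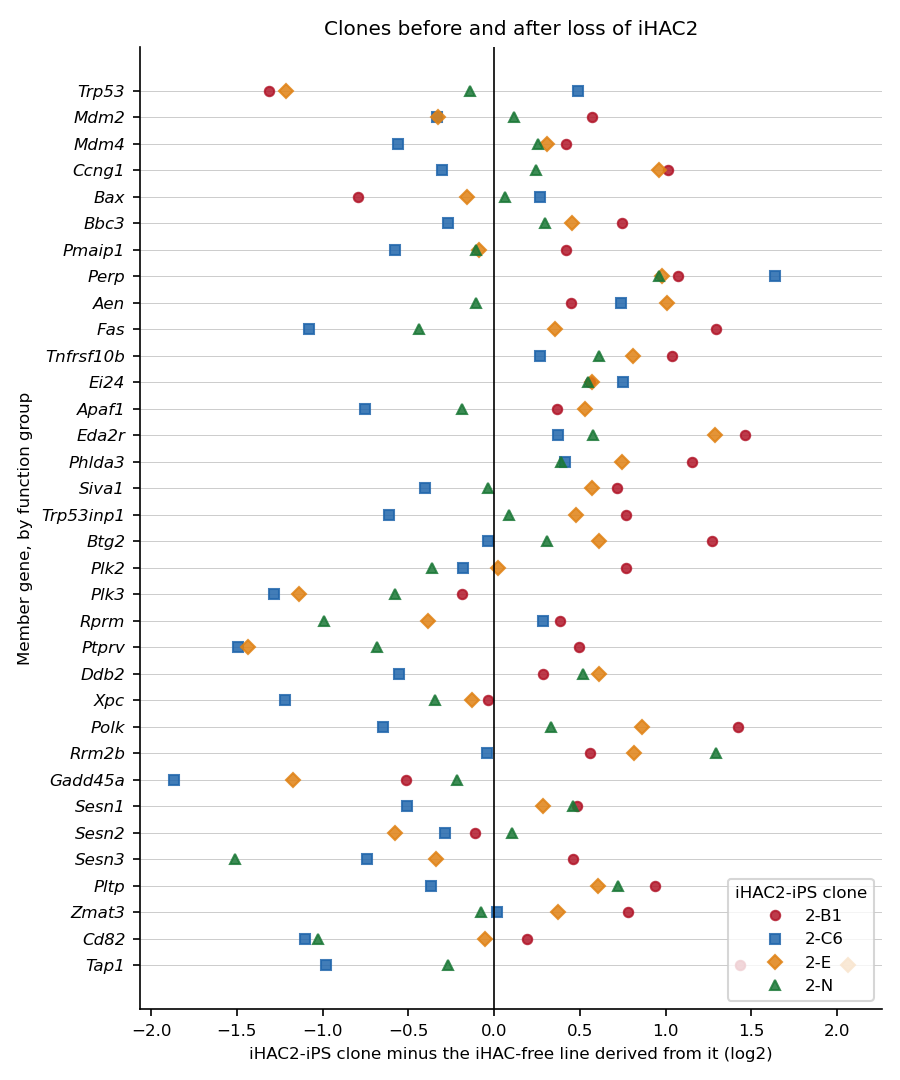
Each point is 1 of the 34 genes, plotted as the log2 level in an iHAC2-iPS clone minus that in the iHAC-free line derived from it, for the 4 pairs. Points lie mostly above 0 for 2-B1 (28 of 34) and mostly below 0 for 2-C6 (10 of 34 above).

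Against the 2 ES lines, members were called in iHAC1-iPS and iHAC2-iPS clones but not in iHAC-free lines. In iHAC1-iPS clones 3 of 34 were called (8.82%, beside 14.3% of all probes): Trp53 as above, Fas higher by 2.25 (limma adjusted p = 0.00691) and Plk3 at -1.44 (limma adjusted p = 0.0244). Fas read -3.24 in B6ES and -2.40 in TT2, below every iHAC1-iPS clone, and Plk3 read 2.91 and 1.87, above every one. Both calls were lost without B6ES (limma adjusted p 0.102 for Fas and 0.287 for Plk3), and that on Plk3 also without 1-A3 (limma adjusted p = 0.0538). With the slide as a block none of the 3 passed and only Ddb2 did. Clone 1-D6, the only iHAC1-iPS clone on the slide of the ES lines, differed from them by -0.99 in Trp53, 2.19 in Fas and -1.37 in Plk3.

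In iHAC2-iPS clones 6 of 34 were called against ES lines (17.6%, beside 6.8% of all probes). Trp53 was lower, and Tap1 (2.17), Polk (1.43), Pltp (1.28), Btg2 (1.15) and Eda2r (1.13) were higher, with limma adjusted p from 0.0242 to 0.044. As the mean of its probes Eda2r differed by 0.51, below 2-fold. Tap1 read -3.37 in B6ES and -2.81 in TT2, below all iHAC2-iPS clones, the lowest of which was 2-C6 at -1.89. Btg2 read 0.18 and 0.07 in ES lines against 1.5, 0.86, 1.86 and 0.90 in 2-B1, 2-C6, 2-E and 2-N. The count fell to 0 without either ES line, to 1 (Polk) without 2-B1 and to 2 (Polk and Tap1) without 2-E, and Pltp was lost without 2-N (limma adjusted p = 0.0643). In iHAC-free lines 0 of 34 were called against ES lines by limma (beside 0.363% of all probes), with 7 at an unadjusted p under 0.05 (20.6%, beside 20.3% of all probes).

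In MEFs, the single starting culture, 9 of the 34 genes had their highest level of all 16 arrays (26.5%, beside 19.3% of all probes tested): Mdm2, Fas, Ei24, Phlda3, Btg2, Plk2, Rprm, Zmat3 and Cd82. Trp53, Mdm4 and Sesn1 had their lowest there, beside 26.2% of all probes tested. Fas read 0.74 in MEFs, and among pluripotent arrays only 1-A3 was above 0 (0.11). Rprm read 2.38 in MEFs and 1.03 or less elsewhere, and Plk2 3.53 in MEFs and 2.25 or less elsewhere. Phlda3 read 7.26 in MEFs and 5.18 to 6.34 in pluripotent lines. MEFs were above the ES mean in 23 of 34 genes (67.6%, beside 45.6% of all probes), and with 1 array there is no test. The retroviral line 20D17 read 1.60 for Trp53, between the ES lines and the iHAC1-iPS clones, -1.88 for Fas and 2.64 for Plk3.

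Another 39 genes of the p53 pathway, its upstream kinases and cofactors, its relatives and further targets, were all measured. Between iHAC2-iPS and iHAC1-iPS clones 10 of 39 were called (5 higher and 5 lower; 25.6%, beside 20.0% of all probes), and their median difference was 0.14. Those higher were Trim24 (1.44), a ligase that ubiquitinates p53, Ppp1r13b (1.1), which directs p53 to death genes, Tigar (1.17) and Gls2 (1.22), enzymes of glucose and glutamine metabolism, and Dusp1 (1.48), a phosphatase of MAP kinases. Those called lower were Hipk2 (-2.92), a kinase that activates p53, Trp53i11 (-1.63), Thbs1 (-1.57), an inhibitor of angiogenesis, Cx3cl1 (-1.11), a chemokine, and the p53 relative Trp63. Trp63 was not well above background in iHAC2-iPS clones. Its mean in iHAC1-iPS clones (-5.21) lay under the lowest level well above background on the iHAC2-iPS arrays (-4.72 on average). A decrease in Trp63 can therefore not be stated. Hipk2 read 3.91, 2.81, 2.88 and 3.63 in 1-A3, 1-B, 1-C3 and 1-D6 and 0.53, 2.01, -0.05 and -0.94 in 2-B1, 2-C6, 2-E and 2-N. It read 0.57 and 0.50 in ES lines. Sfn was not called at its chosen probe, but both its other probes read higher in every iHAC2-iPS clone than in every iHAC1-iPS clone. At 1 of them the levels were 1.94 to 2.71 against -3.74 to 0.61.

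Cdkn1a, which encodes the cell cycle inhibitor p21 and is the best known p53 target of growth arrest, read 3.25, 3.27, 3.01 and 3.23 in 1-A3, 1-B, 1-C3 and 1-D6. In 2-B1, 2-C6, 2-E and 2-N it read 2.66, 2.84, 2.43 and 2.10, and in their derivatives 1.76, 2.35, 2.08 and 2.06. No array of the latter groups reached an iHAC1-iPS clone, and the iHAC-free lines were called lower (-1.13) while the iHAC2-iPS clones were below 2-fold (-0.68). Between iHAC-free lines and iHAC1-iPS clones 11 of 39 were called (28.2%, beside 20.1% of all probes), Tigar at 1.69, Chek2, a kinase that activates p53 after DNA breaks, at 1.28 and Hipk2 at -3.16 among them. No gene of the 39 was called by limma between iHAC2-iPS clones and iHAC-free lines (beside 0.818% of all probes), with 4 at an unadjusted p under 0.05 (10.3%, beside 18.3%). Against ES lines 7 were called in iHAC1-iPS clones (17.9%, beside 14.3% of all probes), Hipk2 at 2.78 and Tigar at -2.03 among them. Cdkn1a, at 1.15 in B6ES and 2.03 in TT2, was called higher there by 1.60, and Cdkn2a was called higher too. In iHAC2-iPS clones 1 of 39 was called against ES lines (2.56%, beside 6.8% of all probes). In iHAC-free lines limma called 0 (beside 0.363%), with 9 at an unadjusted p under 0.05 (23.1%, beside 20.3%). The paper measured p53 (Trp53), Ink4a and Arf (Cdkn2a) and Cip1 (Cdkn1a) by quantitative RT-PCR, relative to Nat1 and to B6ES cells. It describes anti-proliferative genes in iHAC1- and iHAC2-iPS cells as like those of ES cells and not raised. On the arrays, Trp53 at the chosen probe was called lower than in ES lines in both groups (-1.02 and -1.17). The probe holding the study's Trp53 primer stood at 0.22 and -0.30. Cdkn1a and Cdkn2a were called higher in iHAC1-iPS but not in iHAC2-iPS clones, and the ES group of the arrays held B6ES and TT2. The cause of any difference between the arrays and the RT-PCR was not tested.

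p53 binds DNA as a tetramer at paired decamers, and promoter sequences of the members were searched for the single decamer known as the p53 half-site, the same on both strands. The windows were those of RefSeq on GRCm38.p6, from 250 bases before to 50 bases after each transcription start. Of the 34 members 25 had a window and 10 of them held a half-site (40.0%), beside 9.55% of 27025 genes. Of the 8 members with a window that were called in either comparison with iHAC1-iPS clones 3 held one, and of the other members with a window 7 of 17 did. No member window held a pair of half-sites with at most 13 bases between them, which 0.0731% of 32851 windows did. A match is a string of letters and no evidence of binding in these cells. The stretches around the match in Trp53, Mdm2 and the called genes Ccng1, Polk and Gadd45a are given 5′ to 3′ on the gene's strand with the half-site in capitals; they lie at chr11:69580259-69580318 (forward), chr10:117710910-117710969, chr11:40755437-40755496, chr13:96519384-96519437 and chr6:67037413-67037472 (all reverse). That of Cdkn1a, at chr17:29090903-29090962 (forward), is added because its window held a pair, of which 1 is in capitals.
Trp53: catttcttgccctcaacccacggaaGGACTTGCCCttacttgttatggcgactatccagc
Mdm2: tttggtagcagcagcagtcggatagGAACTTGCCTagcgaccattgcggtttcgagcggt
Ccng1: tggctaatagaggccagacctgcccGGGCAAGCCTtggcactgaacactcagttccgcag
Polk: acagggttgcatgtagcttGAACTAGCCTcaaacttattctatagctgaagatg
Gadd45a: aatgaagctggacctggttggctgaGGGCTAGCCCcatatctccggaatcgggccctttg
Cdkn1a: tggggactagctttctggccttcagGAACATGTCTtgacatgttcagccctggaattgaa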

How the data were processed

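Samples were grouped by their labels, and slide and scan session were taken from the array files. The authors deposited Agilent Feature Extraction output (versions 10.7.1.1 and 10.7.3.1; mm9 probe positions) with processed spot intensity values, and a table of log2 values that the authors centred per probe in GeneSpring. Log2 of the deposited processed intensity was averaged over unflagged spots of a probe and scaled to the 75th percentile of each array. A probe was tested if it was well above background on at least 1 of 16 arrays (31415 of 41174). One limma 3.58.1 model (R 4.3.3) over the 6 groups gave each difference, with Benjamini-Hochberg adjustment over all probes tested. It was tested on simulated data. A gene is represented by its probe of highest mean level.

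The named genes were Trp53, Mdm2 and every called member, with members whose groups did not overlap named after their values were seen. The members and lists were chosen with earlier results of these data known. Nanog and Fgf4 of the pluripotency markers were not matched by gene name and are not analysed here. Alternatives were the deposited table, quantile normalization, background correction by normexp with an offset of 50 and other filters on dim probes. Further ones were slide as a block, the compared groups alone, the mean of a gene's probes, no minimum fold and leaving out each array. The slide block was a fixed term for iHAC2-iPS against iHAC-free and iHAC1-iPS against ES, and random in the other comparisons. iHAC-free lines and iHAC2-iPS clones pair by the clone of origin that the labels name; the deviations of same-origin arrays correlated at -0.066, -0.219, 0.0344 and 0.08 over 31387 probes. The number of arrays limits the precision. Exon and untranslated region annotation of probes was not used here.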

Additional observations from a re-analysis of the deposited data

Results flagged for a closer look

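In 8 of 102 sets of 4 arrays (34 genes in 3 groups) a single array lay far from the other 3, by a gap to the nearest array of more than 0.83 of the group's range. At this critical value chance gives about 1 in 20, or 5.1 such arrays. In iHAC1-iPS clones, 1-B stood apart in 3 genes: Perp at 4.65 (the others 2.69 to 2.98), Apaf1 at 0.18 (-0.26 to -0.23) and Polk at -0.61 (-1.11 to -1.05). Without 1-B, Perp was called higher in iHAC2-iPS than in iHAC1-iPS clones. Pltp in 1-A3 read -0.27 (-1.53 to -1.41), and Ddb2 in 1-D6 read -3.12 (-2.54 to -2.44). In iHAC2-iPS clones, Bax in 2-B1 read 3.17 (3.85 to 3.97) and Sesn1 in 2-C6 read 1.15 (1.94 to 2.04). In iHAC-free lines, Zmat3 in F-B1 read 2.66 (2.93 to 2.97). Levels are log2 relative to the array's 75th percentile.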

How the results depend on the processing

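The count of 10 members called between iHAC2-iPS and iHAC1-iPS clones ranged from 7 (without 1-A3) to 15 (adjusted p with no minimum fold) over its alternatives, and from 7 to 11 when single arrays were left out. Between iHAC-free lines and iHAC1-iPS clones the count of 6 became 16 with no minimum fold and stayed between 5 and 8 without single arrays. Between iHAC2-iPS clones and iHAC-free lines it was 0 under all 18 alternatives, the replicate block by clone of origin included, which changed no call of a member. For iHAC1-iPS against ES the count of 3 became 1 with the slide as a block, 6 with no minimum fold and 0 to 4 without single arrays, with 0 without B6ES. For iHAC2-iPS against ES the count of 6 became 0 when only the compared groups entered the model and 0 to 7 without single arrays. Trp53 in iHAC-free lines minus iHAC1-iPS clones, 0.40 at the chosen probe, turned to -0.16 (limma adjusted p = 0.362) as the mean of its 2 probes. Of 25 single calls of members, 9 were called under every alternative and 0 turned direction. The rest were lost in at least 1 alternative. The cause of these changes was not tested. Few arrays per group, 2 in the ES group, limit what can pass, and 1 scan session per group leaves session and group inseparable in comparisons across sessions.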
